A study of Mus musculus with 9 samples.

Results

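The genes described here are 8 of the 55471 in the deposited table: Kdm5a, Kdm5b, Kdm5c, Kdm6a, Kdm6b, Kdm7a, Phf2 and Phf8. They were chosen by name, as the mouse genes of the KDM5, KDM6 and PHF families of histone lysine demethylases that are not Y-linked, and all 8 passed the filter on low counts that left 18234 genes for testing. Their transcripts were measured by poly-A RNA sequencing in germ cells of C57Bl mice labelled as pachytene and diplotene, the stages of meiotic prophase in which homologous chromosomes are synapsed and then come apart. The cells had been sorted from digested testes of a transgenic line in which a promoter active in germ cells drives the red fluorescent protein tdTomato, a feature that all groups share, and were then kept in culture; no age is given in the labels.

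The 9 libraries formed 3 groups of 3, lettered A to C in each. Untreated cells received no compound. A second group received 24 mM oxamate, an inhibitor of lactate dehydrogenase, for 48 h. The third received 24 mM oxamate with 0.3 mM octyl-L2HG, an ester that carries L-2-hydroxyglutarate into cells, for the same 48 h. No group received octyl-L2HG without oxamate or another octyl ester, so that effects of the metabolite and of the octyl group cannot be told apart. No time in culture is given for the untreated cells, so treatment and time in culture cannot be told apart in either comparison with them. Whether the 3 libraries of each group derive from different animals or cultures is not stated in the labels, and the p-values may for that reason rest on technical spread alone.

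All 8 enzymes carry a JmjC domain, which uses iron, oxygen and alpha-ketoglutarate to oxidise the methyl group that it removes, and L-2-hydroxyglutarate, which resembles alpha-ketoglutarate, can compete with it in enzymes of this kind. KDM5 enzymes remove methyl groups from lysine 4 of histone H3 (H3K4), a mark of active promoters, and KDM6 enzymes remove them from H3K27, a mark of Polycomb repression. KDM7A, PHF2 and PHF8 form the third family, which binds methylated H3K4 through a PHD finger and acts mainly on methylated H3K9, with H3K27 a further substrate of KDM7A and H4K20 of PHF8. The measurements below are of transcripts, not of enzyme activity or of histone marks.

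Phf8 was the member with the largest difference, and 2 stretches of sequence belong to it. Its promoter is shown beside that of Kdm5c because both genes lie on the X chromosome, as does Kdm6a, and their transcripts differed in how they responded to octyl-L2HG. The windows run from 250 bases before to 50 bases after the RefSeq start (GRCm38.p6), at chrX:151520422-151520721 on the + strand for Phf8 and chrX:152232977-152233276 on the + strand for Kdm5c. Capitals mark matches to TGACG on either strand, the core of the cyclic AMP response element bound by CREB and CREM proteins.
Phf8 promoter: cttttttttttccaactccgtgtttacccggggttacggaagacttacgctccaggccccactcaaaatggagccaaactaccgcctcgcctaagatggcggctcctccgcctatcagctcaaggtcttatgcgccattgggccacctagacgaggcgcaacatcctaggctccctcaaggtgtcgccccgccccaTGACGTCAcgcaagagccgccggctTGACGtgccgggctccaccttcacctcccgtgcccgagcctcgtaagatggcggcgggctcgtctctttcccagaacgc
Kdm5c promoter: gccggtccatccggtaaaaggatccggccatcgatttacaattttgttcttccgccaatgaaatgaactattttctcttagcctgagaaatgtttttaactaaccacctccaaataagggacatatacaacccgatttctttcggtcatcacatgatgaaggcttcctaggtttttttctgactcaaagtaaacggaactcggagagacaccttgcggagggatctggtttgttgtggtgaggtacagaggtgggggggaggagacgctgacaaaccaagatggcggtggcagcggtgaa
The Phf8 window held 3 matches to TGACG counted on both strands, and the first capital run is the full palindrome TGACGTCA, which gives 2 of the 3 and begins 54 bases before the start. The Kdm5c window held no match to either. By the deposited coordinates Kdm5c starts at 152233020, near the upstream end of its window, so most of that window lies inside the gene. Phf8 starts at 151520672, toward the downstream end of its window, so the 2 windows do not cover like stretches. Among the 32851 promoter windows of this length in the table, 20.8% held TGACG and 1.79% held TGACGTCA. Of the 8 genes 6 had a window. Kdm5b, Kdm6a and Phf2 had 1 match to TGACG each and Kdm7a had 0. ACGTG, the core of sites bound by hypoxia-inducible factors, was also counted on both strands. It had 3 matches in Kdm6a, 2 of them from 1 palindrome, CACGTG, and 1 match each in Kdm5b, Kdm7a and Phf8. Of all windows 19.6% held a match. In Phf8 and Kdm5b the ACGTG match overlaps a TGACG. The motifs and the 2 promoters printed were chosen after the data had been seen. Kdm6a, with its 1 match to TGACG, would have met the same reason as Kdm5c. A match describes letters and is not evidence of binding, and a part of the motif in the response to octyl-L2HG was not tested.

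The levels of the 8 genes differed widely. Per kilobase of merged exons, the mean level in untreated cells was 57.1 ± 3.05 CPM (counts scaled to the size of the library) for Phf2 and 25.7 ± 0.642 for Kdm5b (SD, n = 3 libraries here and below). Next came Kdm5a at 2.83 ± 0.240, Kdm7a at 1.35 ± 0.0722, Kdm6b at 0.931 ± 0.0795, Kdm5c at 0.708 ± 0.0726 and Phf8 at 0.604 ± 0.0453 CPM per kilobase. Kdm6a was lowest, at 0.0498 ± 0.0130 CPM per kilobase, from 12 to 17 counts in each untreated library. Only Kdm5c and Phf8 had overlapping ranges among neighbours in this order. Thus 1 H3K4 demethylase and 1 H3K9 demethylase made up most of the signal of these families, and the 3 X-linked members took the 3 lowest places.

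**Figure D1:**
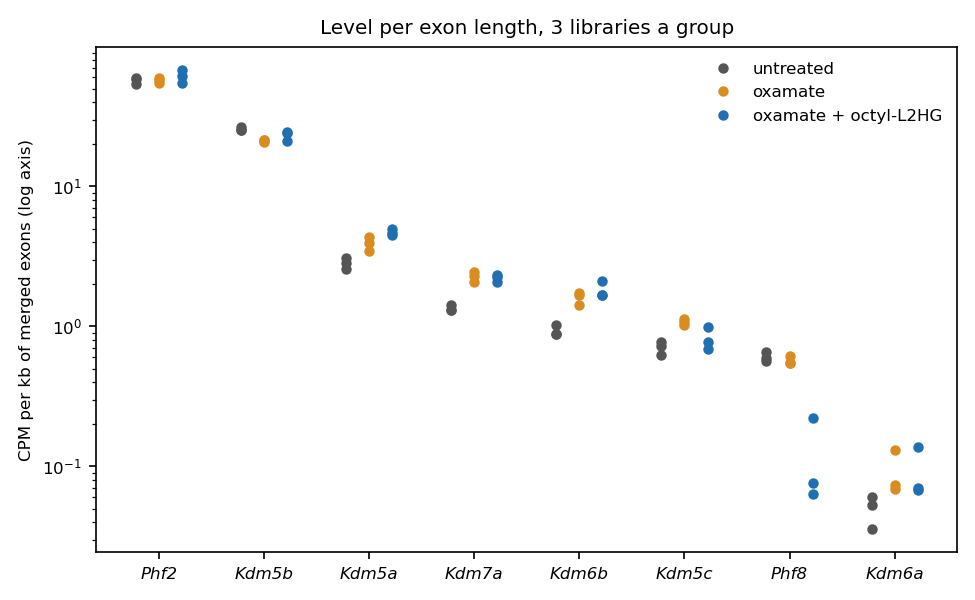
Level of each gene per kilobase of merged exons (CPM per kb, log axis) in each of the 9 libraries, with genes ordered by their untreated mean. Phf2 and Kdm5b lie well above the other 6 genes in every group. With octyl-L2HG, library A of Phf8 lies below the range of Kdm6a, library B within it and library C above it.

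The order of the means was the same with oxamate. Kdm6b then stood at 1.61 ± 0.173 and Kdm5c at 1.08 ± 0.0490 CPM per kilobase, above Phf8 at 0.568 ± 0.0389, so Kdm5c and Phf8 no longer overlapped. With octyl-L2HG as well, Phf8 stood at 0.121 ± 0.0891 and Kdm6a at 0.0913 ± 0.0392 CPM per kilobase, and their libraries overlapped.

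The first comparison, of oxamate with untreated cells, sets cells given this inhibitor for 48 h against cells given none. Kdm5a, Kdm5c, Kdm6b and Kdm7a rose, Kdm5b fell, and Kdm6a, Phf2 and Phf8 did not pass the test (limma-voom over all 18234 genes, Benjamini-Hochberg adjusted p under 0.05). The 4 of 8 that rose compare with 5.74% of all tested genes, and the 1 of 8 that fell with 3.84%. With the letter as a replicate block the same 5 members were called, among 2210 rises and 1822 falls over all genes. The median log2 change of the 8 genes was 0.54, against -0.01 over all tested genes. These transcripts are long: 2637 tested genes, 14.5%, have an annotated transcript at least as long as the shortest among the 8, and of these 343 rose and 82 fell, with a median log2 change of 0.09.

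**Figure D2:**
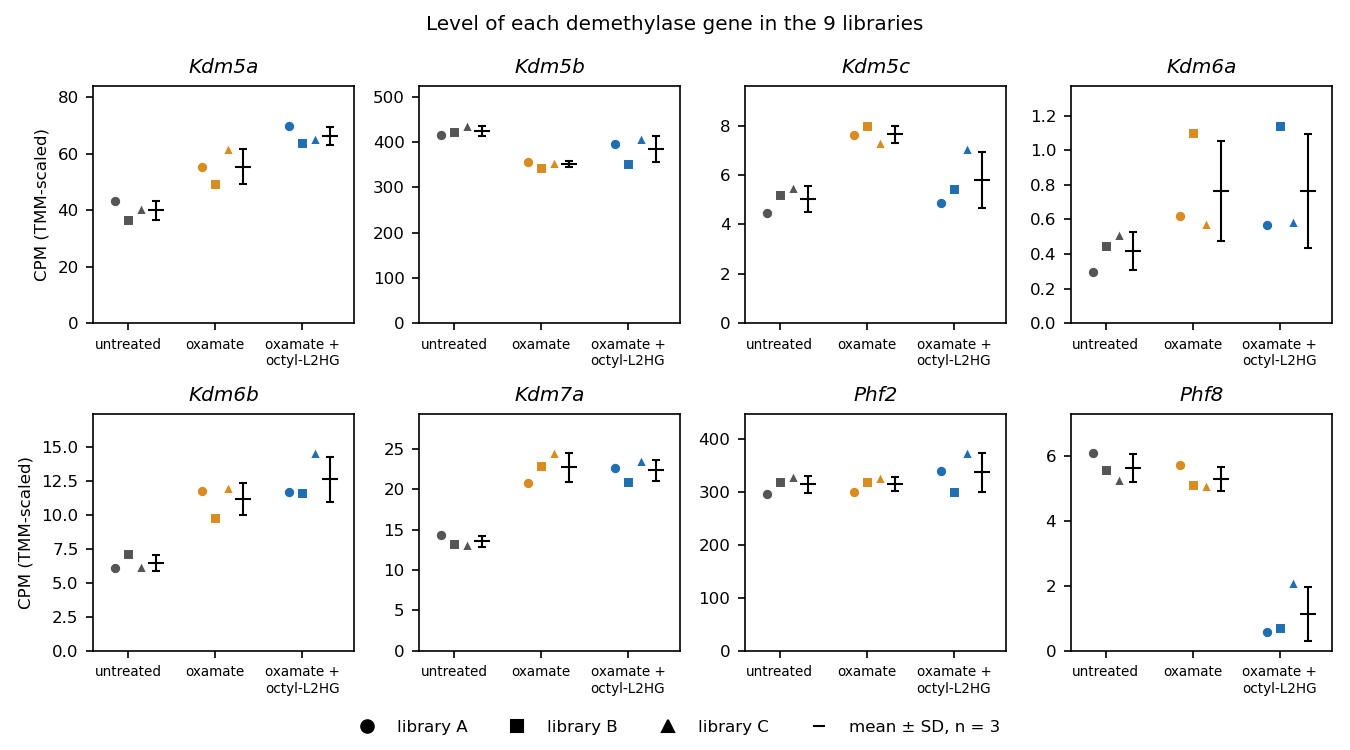
Level of each gene (CPM, scaled between libraries; each panel has its own axis from 0) in the 9 libraries, with symbols for libraries A, B and C and bars for the mean ± SD of 3 libraries. Kdm6b and Kdm7a are higher in all 6 treated libraries than in the 3 untreated ones, and Phf8 is low in the 3 libraries with octyl-L2HG, where library C lies above A and B.

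In the KDM5 family the 3 genes did not move together. Kdm5a (ENSMUSG00000030180, chromosome 6, 120364124 to 120444574, + strand), whose product acts with SIN3 deacetylase complexes at promoters, had 43.3, 36.5 and 40.3 CPM in untreated libraries A, B and C, and 55.4, 49.3 and 61.8 CPM with oxamate. The groups did not overlap, and the level was 1.38-fold higher with oxamate (log2 change 0.47, SE 0.10, limma adjusted p = 0.02). The call was lost without untreated library B or C (limma adjusted p = 0.086 in each case) or oxamate library C (0.08), and when trends with transcript length and GC content were removed, an alternative chosen after seeing the data (log2 change 0.32, limma adjusted p = 0.11). Ccdc77, a gene on the other strand that shares 251 exon bases (1.77%) with Kdm5a, had a log2 change of 0.16 (limma adjusted p = 0.48).

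Kdm5b (ENSMUSG00000042207, chromosome 1, 134560171 to 134635285, + strand), the more abundant KDM5 gene in these cells, moved the other way. It had 416, 422 and 436 CPM in the untreated libraries and 356, 343 and 354 CPM with oxamate. Every oxamate library lay below every untreated one, with little spread in either group, and the fall was 1.21-fold (log2 change -0.27, SE 0.07, limma adjusted p = 0.039). This call was lost without any one of untreated libraries A, B or C or oxamate libraries B or C, with limma adjusted p up to 0.17, while the log2 change stayed between -0.29 and -0.26; it was also lost without a filter on low counts (limma adjusted p = 0.075).

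Kdm5c (ENSMUSG00000025332, chromosome X, 152233020 to 152274535, + strand), whose loss in humans causes intellectual disability, had 4.46, 5.18 and 5.46 CPM in the untreated libraries and 7.63, 8.01 and 7.32 CPM with oxamate. The groups did not overlap, and the rise was 1.53-fold (log2 change 0.61, SE 0.16, limma adjusted p = 0.035). It lost its call without each of the 6 libraries in turn, with log2 changes between 0.52 and 0.68 and limma adjusted p up to 0.15.

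Ratios within a library do not depend on how the libraries are scaled. The log2 ratio of Kdm5b to Kdm5a counts went from 3.41 ± 0.135 in untreated cells to 2.67 ± 0.140 with oxamate, a difference of -0.74 with no overlap. The log2 ratio of Kdm5c to Kdm5b went from -6.40 ± 0.122 to -5.52 ± 0.0911, a difference of 0.88, also with no overlap. The ratio of Kdm5c to Kdm5a differed by 0.14 and its groups overlapped. With 3 libraries against 3 an exact two-sided permutation test cannot go below p = 0.1, which both of the first 2 ratios reached (adjusted p = 0.18 over the 21 ratio tests made).

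In the KDM6 family Kdm6b (ENSMUSG00000018476, chromosome 11, 69398508 to 69413675, − strand), which encodes the H3K27 demethylase JMJD3 that is induced by many stimuli, had 6.13, 7.11 and 6.18 CPM in the untreated libraries and 11.8, 9.82 and 12.0 CPM with oxamate. The lowest oxamate library was above the highest untreated one, and the rise was 1.74-fold (log2 change 0.80, SE 0.14, limma adjusted p = 0.0082). It kept its call without 5 of the 6 libraries in turn; without untreated library C the log2 change was 0.77 and the limma adjusted p was 0.057. Kdm6bos, an antisense gene that shares 286 exon bases (4.11%) with Kdm6b, had a log2 change of 0.77 that did not pass (limma adjusted p = 0.073). The strand setting of the count is unknown from the sources at hand, and reads of the shared bases may not be told apart.

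Kdm6a (ENSMUSG00000037369, chromosome X, 18162575 to 18279936, + strand), which encodes the H3K27 demethylase UTX found in KMT2C and KMT2D methyltransferase complexes, was near the floor of detection. It had 13, 12 and 17 counts in the untreated libraries and 23, 31 and 21 with oxamate, or 0.417 ± 0.109 and 0.765 ± 0.290 CPM. The groups did not overlap, but with so few counts the log2 change of 0.83 (95% confidence interval 0.00 to 1.65) did not pass (limma adjusted p = 0.19). The log2 ratio of Kdm6a to Kdm6b, -3.94 ± 0.377 and -3.90 ± 0.665, overlapped between groups (exact permutation p = 0.9).

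In the third family Kdm7a (ENSMUSG00000042599, chromosome 6, 39136623 to 39206789, − strand), which encodes a demethylase of H3K9 and H3K27, had 14.4, 13.2 and 13.1 CPM in the untreated libraries and 20.8, 22.9 and 24.5 CPM with oxamate. The groups lay far apart beside their spread, and the rise was 1.67-fold (log2 change 0.74, SE 0.11, limma adjusted p = 0.0033). Among the 5 calls of this comparison it was the one kept without each library in turn, with a largest limma adjusted p of 0.035 and log2 changes between 0.68 and 0.80. The antisense gene 4930599N23Rik, which shares 287 exon bases (2.85%) with it, had a log2 change of -0.06 (limma adjusted p = 0.88).

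Phf2 (ENSMUSG00000038025, chromosome 13, 48801750 to 48871119, − strand), whose product demethylates H3K9 together with the DNA-binding protein ARID5B, had 295, 319 and 327 CPM in the untreated libraries and 300.3, 319 and 326 CPM with oxamate. The groups overlapped throughout, with a log2 change of 0.01 (95% confidence interval -0.19 to 0.20, limma adjusted p = 0.97). Phf8 (ENSMUSG00000041229, chromosome X, 151520672 to 151633859, + strand), whose product demethylates H3K9 and H4K20, had 6.08, 5.55 and 5.25 CPM in the untreated libraries and 5.71, 5.10 and 5.07 CPM with oxamate. These groups overlapped as well, with a log2 change of -0.09 (95% confidence interval -0.65 to 0.47, limma adjusted p = 0.86). Kdm7a thus rose against Phf2 within libraries, from a log2 ratio of -4.53 ± 0.153 to -3.79 ± 0.0576, a difference of 0.74 with no overlap (exact permutation p = 0.1, adjusted p = 0.18).

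**Figure D3:**
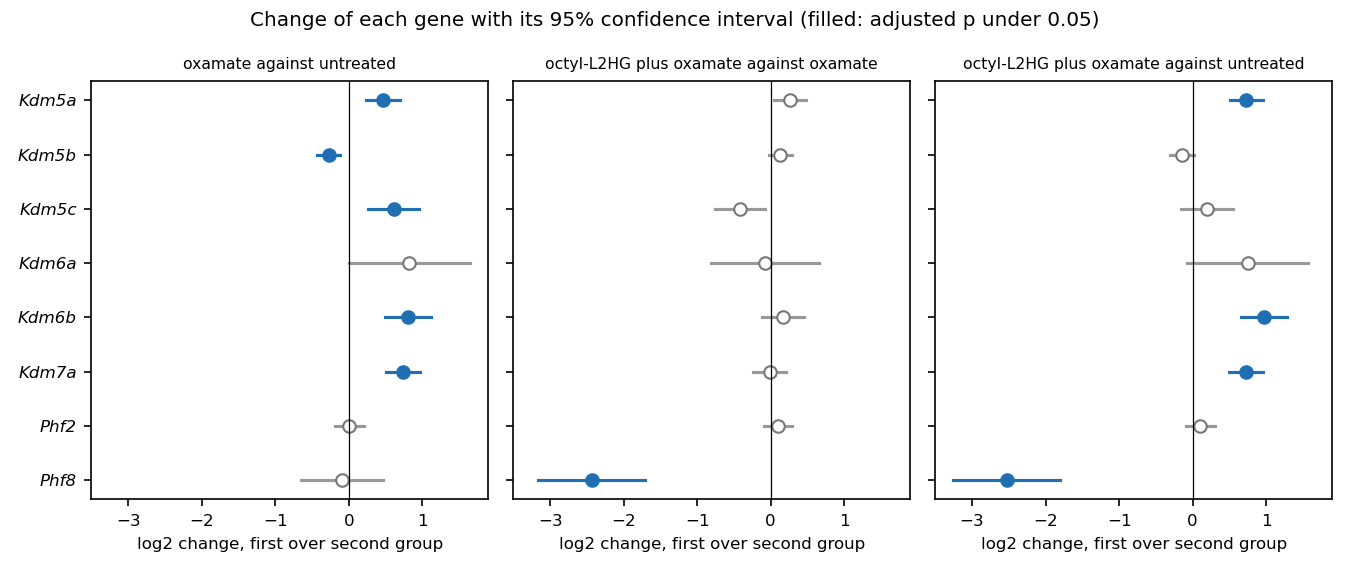
Log2 change of each gene in the 3 comparisons, with 95% confidence intervals from limma-voom; filled points have a Benjamini-Hochberg adjusted p under 0.05. With oxamate 4 genes lie to the right of 0 and Kdm5b to the left, and octyl-L2HG added to oxamate leaves Phf8 as the one filled point.

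The second comparison sets cells given octyl-L2HG together with oxamate against cells given oxamate alone. Phf8 fell by 2.44 on the log2 scale, and no other member passed the test. None of the 8 rose, against 4.11% of all tested genes, and 1 of 8 fell, against 15.4%. The median log2 change of the 8 was 0.04, against 0.07 over all tested genes.

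Phf8 had 5.71, 5.10 and 5.07 CPM in oxamate libraries A, B and C, and 0.589, 0.704 and 2.08 CPM with octyl-L2HG, which is 28, 16 and 82 counts. The groups did not overlap, and the level was 5.41-fold lower (SE 0.33 on the log2 scale, limma adjusted p = 3e-04). Library C with octyl-L2HG kept more of the transcript than A and B: without it the log2 change was -3.04 (limma adjusted p = 3e-06), and without library A it was -1.97 (0.0025). The call held under every alternative run. The authors' deposited table gives an adjusted p of 1.6e-10 for this gene and contrast.

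Markers of spermatids, the cells that follow meiosis, were also lower in these libraries. All 12 of the spermatid markers listed (among them the protamine gene Prm1 and the transition protein gene Tnp1) fell with octyl-L2HG, with a median log2 change of -2.61. Their summed level was 904 to 1031 CPM in the 3 untreated libraries, 717 to 857 CPM in the oxamate libraries and 255 to 385 CPM in those with octyl-L2HG added. Library C had the highest of the last 3 sums, at 385 CPM, against 255 CPM in A and 258 CPM in B, which is also the library with the highest Phf8, and no marker of the list was at 0. Against untreated cells none of the 12 passed with oxamate alone. The part of these transcripts in the Phf8 result was not tested, and in RNA from many cells together, fewer cells of a type and less RNA per cell cannot be told apart. Summed spermatocyte markers, such as Sycp1 and Sycp3 of the synaptonemal complex, lay between 3081 and 3582 CPM with oxamate and between 3524 and 3969 CPM with octyl-L2HG.

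Many X-linked genes were lower with octyl-L2HG. Falls numbered 210 and rises 1 among the 409 X-linked genes tested, with a median log2 change of -0.91, while 198 did not pass. Among 17760 autosomal genes 2573 fell and 748 rose, with a median of 0.07. On the X chromosome oxamate alone against untreated cells gave 51 rises, 0 falls and a median of 0.25. Phf8 lay below all but 46 of the 409, or 11.2%. The other X-linked members did not share the size of its change. Kdm5c, with a log2 change of -0.41 that did not pass, lay above 68.9% of X-linked genes. Kdm6a, at -0.08, lay above 84.4% of them.

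**Figure D4:**
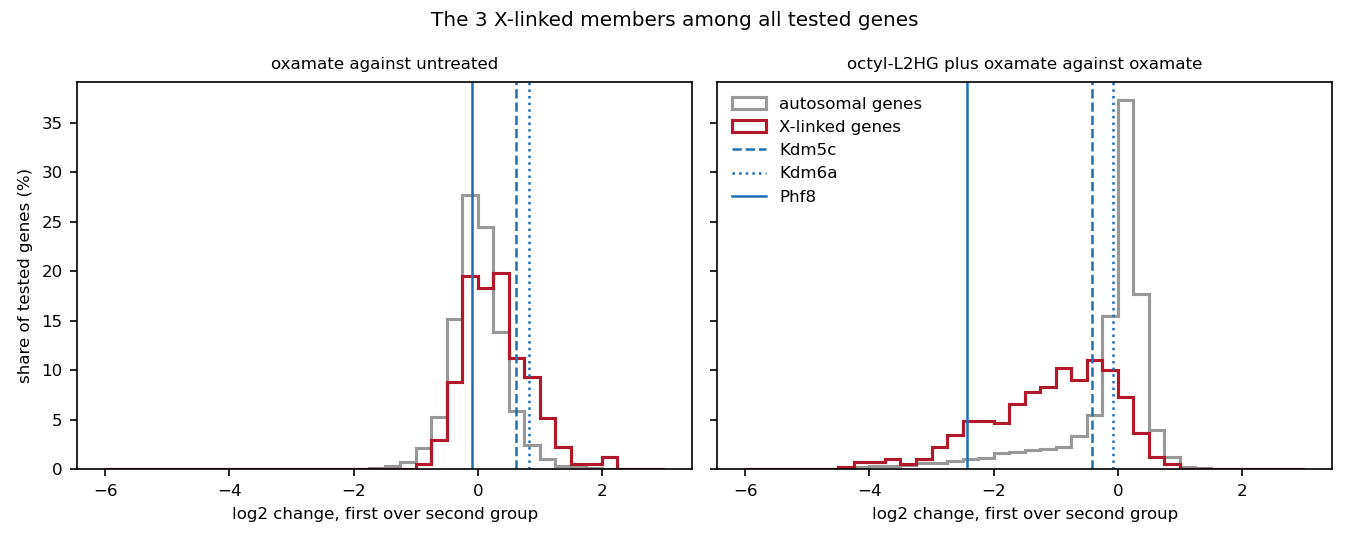
Share of tested genes (%) by log2 change for autosomal genes (grey) and X-linked genes (red), with vertical lines for Kdm5c, Kdm6a and Phf8. With oxamate against untreated the X-linked median is 0.25, and with octyl-L2HG added to oxamate it is -0.91, with Phf8 at -2.44 below all but 46 of 409 X-linked genes, Kdm5c above 68.9% and Kdm6a above 84.4% of them.

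Phf8 also has a relative on an autosome that the counts must be read beside. Phf8-ps (chromosome 17, 33064143 to 33068025, − strand), deposited as a transcribed processed pseudogene, had more counts than Phf8 in all 9 libraries. It had 29.6, 34.4 and 41.8 CPM with oxamate and 10.3, 17.5 and 21.1 CPM with octyl-L2HG. It too fell with octyl-L2HG, by 1.19 on the log2 scale (limma adjusted p = 0.0022), from a level that oxamate had not changed past the threshold (log2 change 0.29, limma adjusted p = 0.4). The copy aligned to 86.2% of the 3069 coding bases of Phf8 with 76.6% identity, and the longest identical run was 39 bases. The first 60 coding bases of both, from the GENCODE transcripts, are shown with the 7 differing bases in capitals; the copies are more alike in this window than over the whole alignment.
Phf8: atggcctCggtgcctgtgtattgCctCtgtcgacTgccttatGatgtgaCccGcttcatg
Phf8-ps: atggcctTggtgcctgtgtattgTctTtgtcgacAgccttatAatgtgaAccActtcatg
The sources at hand do not say how the authors treated reads that could be placed at both loci, and both values carry this uncertainty. This look at the copy was made after the data had been seen.

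The remaining 7 genes had small differences with octyl-L2HG. Kdm5a, at 70.1, 63.8 and 65.2 CPM, lay above all oxamate libraries, with a log2 change of 0.26 (95% confidence interval 0.04 to 0.48) that did not pass over all genes (limma adjusted p = 0.095). Without oxamate library C it was 0.34 and passed (limma adjusted p = 0.048). Kdm5c, at 4.88, 5.46 and 7.08 CPM, lay below all oxamate libraries, with 2 of its 3 values in the untreated range and a log2 change of -0.41 (95% confidence interval -0.75 to -0.07, limma adjusted p = 0.088). Without octyl-L2HG library C it was -0.58 and passed (limma adjusted p = 0.015), and with trends in length and GC content removed it was -0.48 (0.044). With the letter as a replicate block both genes passed (limma adjusted p = 0.027 for Kdm5a and 0.043 for Kdm5c). The calls on these 2 genes thus turned on single libraries or settings.

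Kdm5b, at 395, 352 and 407 CPM, overlapped the oxamate libraries (log2 change 0.13, 95% confidence interval -0.03 to 0.29, limma adjusted p = 0.25). Kdm6b had 11.7, 11.6 and 14.6 CPM (0.17, interval -0.12 to 0.46, limma adjusted p = 0.43) and Kdm7a had 22.6, 20.9 and 23.5 CPM (-0.01, interval -0.23 to 0.20, limma adjusted p = 0.94). In both genes, the pair with the smallest p in the first comparison, the groups with and without octyl-L2HG overlapped. Phf2 had 340.0, 299 and 373 CPM (0.10, interval -0.10 to 0.29, limma adjusted p = 0.5). Kdm6a had 27, 26 and 23 counts, and its interval of -0.81 to 0.66 leaves a change in either direction undetected at this depth (limma adjusted p = 0.91).

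Within libraries, the log2 ratio of Phf8 to Phf2 went from -5.89 ± 0.156 with oxamate to -8.44 ± 0.863 with octyl-L2HG, a difference of -2.55 with no overlap. The ratio of Kdm7a to Phf8 differed by 2.43, that of Kdm5c to Kdm5a by -0.68 and that of Kdm5c to Kdm5b by -0.54, all with no overlap. Each reached the smallest exact permutation p of 0.1 (adjusted p = 0.18 over the 21 tests). The ratios of Kdm5b to Kdm5a, of Kdm7a to Phf2 and of Kdm6a to Kdm6b overlapped, with differences of -0.13, -0.12 and -0.19.

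The third comparison sets cells given both compounds against untreated cells, and shares its libraries with the other two. Kdm5a, Kdm6b and Kdm7a rose and Phf8 fell, so 3 of 8 rose, against 17.2% of all tested genes, and 1 of 8 fell, against 21.1%. Of the 2637 tested genes with a transcript at least as long as the shortest among the 8, 744 rose and 440 fell. Kdm5a was 1.66-fold higher (log2 change 0.73, limma adjusted p = 0.00022), Kdm6b 1.96-fold (0.97, limma adjusted p = 0.00027) and Kdm7a 1.65-fold (0.72, limma adjusted p = 0.00028). Phf8 was 5.76-fold lower (log2 change -2.53, SE 0.33, limma adjusted p = 0.00014). All 4 calls were kept without each library in turn, and with trends in length and GC content removed the log2 change of Kdm7a was 0.39 (limma adjusted p = 0.017). Kdm5b, with a log2 change of -0.14, and Kdm5c, with 0.20, did not pass here (limma adjusted p = 0.15 and 0.36). Kdm6a at 0.75 and Phf2 at 0.10 did not pass either (limma adjusted p = 0.14 and 0.38). Of the genes that share exon bases on the other strand, Kdm6bos rose by 0.97 and Ccdc77 by 0.57 (limma adjusted p = 0.0084 and 0.0049). The one beside Kdm7a, 4930599N23Rik, had 0.28 and did not pass (limma adjusted p = 0.26). A part of shared reads in the rises of Kdm6b and Kdm5a was not tested.

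Genes that add, share or oppose these marks were read from lists chosen with earlier results of these data known. Of 14 other JmjC oxygenases, 4 rose and 3 fell with oxamate, with a median log2 change of 0.18. Kdm2b and Kdm2a, demethylases of H3K36, rose by 0.61 and 0.45 (limma adjusted p = 0.0017 and 0.01), and Jmjd1c and Kdm3a, relatives that act on H3K9, by 0.45 and 0.30 (0.0067 and 0.023). The 3 that fell were Hr, Kdm8 and Kdm4d, by 0.94, 0.77 and 0.28 (limma adjusted p = 0.037, 0.045 and 0.034). Hr had few counts, 17, 16 and 16 in the oxamate libraries. With octyl-L2HG added Jmjd1c and Kdm3a rose further, by 0.38 and 0.28 (limma adjusted p = 0.0034 and 0.011), and no other gene of that list passed; Kdm4b, with the next smallest p, had -0.76 (limma adjusted p = 0.064). Of the flavin-dependent demethylases, which do not use alpha-ketoglutarate, Kdm1a rose with oxamate (0.43, limma adjusted p = 0.0082) and Kdm1b fell with octyl-L2HG (-1.10, limma adjusted p = 0.007). The fall of Kdm1b rests on low counts, 33, 24 and 35 with oxamate and 16, 10 and 20 with octyl-L2HG. Kdm1b with oxamate and Kdm1a with octyl-L2HG, at 0.27 and 0.02, did not pass (limma adjusted p = 0.47 and 0.9). The Y-linked paralogs Kdm5d and Uty did not pass in either comparison. Their log2 changes were 0.03 and 0.65 with oxamate (limma adjusted p = 0.95 and 0.055) and 0.40 and -0.20 with octyl-L2HG (0.19 and 0.5).

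Among the enzymes that place the marks, of 12 genes for H3K4 methyltransferases and their core subunits, 2 rose with oxamate, Cxxc1 by 0.33 and Setd1a by 0.41 (limma adjusted p = 0.022 and 0.048), and 1 fell with octyl-L2HG, the shared subunit Dpy30 by 0.88 (limma adjusted p = 0.00034). The next by p did not pass: Setd1b had a log2 change of 0.37 with oxamate (limma adjusted p = 0.062), and Rbbp5 and Cxxc1 had 0.30 and 0.18 with octyl-L2HG (0.098 and 0.12). Of 10 tested genes of PRC2, the complex that methylates H3K27, 0 passed with oxamate, where Aebp2, Ezh2 and Eed had log2 changes of 0.36, 0.28 and 0.23 (limma adjusted p = 0.051, 0.066 and 0.21). With octyl-L2HG the accessory subunits Mtf2 and Aebp2 rose by 0.43 and 0.38 and Jarid2 fell by 0.58 (limma adjusted p = 0.0091, 0.018 and 0.0066). Of the 3 H4K20 methyltransferases, Kmt5a rose with oxamate by 0.63 (limma adjusted p = 0.0084), and Kmt5c and Kmt5b, at 0.61 and 0.26, did not pass (0.14 and 0.23). With octyl-L2HG Kmt5a, Kmt5c and Kmt5b had log2 changes of 0.17, 0.35 and -0.06, none of which passed (limma adjusted p = 0.3, 0.33 and 0.81).

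Among partners of the enzymes, 2 of 4 tested genes of the complexes that hold KDM6A rose with oxamate, Ncoa6 by 0.57 and Paxip1 by 0.47 (limma adjusted p = 0.01 and 0.016), and Kmt2d, at -0.23, did not pass (0.19). With octyl-L2HG 0 of the 4 passed, with log2 changes of 0.16 for Kmt2c, 0.11 for Kmt2d and 0.10 for Ncoa6 (limma adjusted p = 0.41, 0.52 and 0.55). Of 8 partners of KDM5 proteins in SIN3 complexes, Hdac2 rose by 0.69 and Sin3a by 0.55 with oxamate (limma adjusted p = 0.009 and 0.015), and Emsy, at 0.38, did not pass (0.052). With octyl-L2HG 0 of the 8 passed, and Gatad1, Hdac2 and Phf12 had log2 changes of 0.17, 0.18 and 0.17 (limma adjusted p = 0.26, 0.33 and 0.39). Arid5b, the partner of PHF2, had 1.81, 1.74 and 2.33 CPM with oxamate and 0.778, 0.264 and 1.24 CPM with octyl-L2HG. It fell, with a log2 change of -1.43 (limma adjusted p = 0.015), while Phf2 itself did not pass. The counts of Arid5b with octyl-L2HG were low, at 37, 6 and 49. With oxamate alone Arid5b had a log2 change of 0.42 against untreated cells (limma adjusted p = 0.42). Zfp711, an X-linked gene whose product recruits PHF8, rose with oxamate by 0.64 (limma adjusted p = 0.026) and did not pass with octyl-L2HG (-0.28, limma adjusted p = 0.24).

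The genes nearest to each member across the 9 libraries were found by the root mean square difference of centred log2 CPM. Each difference has to be read beside the spread of the member itself. Actl11 and Csnka2ip lay nearest to Phf8, at 0.09 and 0.11, where the spread of Phf8 itself was 1.26. Taf2 and Cog3 lay nearest to Kdm5a (spread 0.32), at 0.04 each, and Nr2c2 and Chtop to Kdm5b (spread 0.13), at 0.04 each. Tob1 and Rybp lay nearest to Kdm7a (spread 0.35), at 0.06 and 0.07. Fam72a and Pbxip1 lay nearest to Kdm6b (spread 0.44), at 0.09 and 0.10, and Eml6 and Suv39h1 to Kdm5c (spread 0.30), at 0.10 and 0.12. Lrrc61 and Ulk2 lay nearest to Phf2, at 0.05 each, but the spread of Phf2 was only 0.099, so they did not follow it closely. For Kdm6a the nearest, Zfp457 and Nutm2, stood at 0.26 and 0.27, beside a spread of 0.56, and did not follow it closely either.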

How the data were processed

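The labels name poly-A capture with a stranded KAPA kit. The submitters' processing notes name the build GRCm38 and, with no roles or parameters, DESeq2 1.22.2, TopHat2 2.1.1, HTSeq 0.6.0, bcl2fastq 2.18.0.12 and cutadapt 1.18. The strand setting of the count was not found in those notes. The authors deposited one table which, per the file headers, has raw and normalized values of each library beside their log2 fold changes with adjusted p-values. The raw values are counts per gene as deposited by the authors, without normalization, and all 442944 were whole numbers. For 6255 genes the table has a question mark, and these genes were set aside. The question marks kept the raw values from being entered as the unit counts, and limma-voom was planned as the test in place of a negative binomial model. No use was made of the 9 normalized columns.

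Library totals were 24849620 to 46671048 counts, so counting error matters for low genes such as Kdm6a. A gene was tested if its CPM reached 0.288, equal to 10 counts in a library of median size, in 3 or more libraries, and its counts summed to 15 or more. Libraries were scaled by a trimmed mean of M values, and 18234 genes were fitted in all 9 libraries together with limma 3.58.1 in R 4.3.3 (voom, robust empirical Bayes), with Benjamini-Hochberg adjustment and a threshold of 0.05. CPM are TMM-scaled, and lengths come from GENCODE vM21, whose coordinates for the 8 genes equal the deposited ones. Ratios within a library were compared by exact permutation tests after adding 0.5 to each count.

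The members, gene lists and tests were chosen with earlier results of these data known. From each list the text names the 3 genes with the smallest p in each of the first 2 comparisons, any gene of a list of 4 or fewer and, as nearest in pattern, 2 genes with a mean of at least 2 CPM for each member. Kdm3a with oxamate, Hr, Kdm8, Kdm4d, Ccdc77, Kdm6bos, 4930599N23Rik and Phf8-ps are named beside these and were chosen after their values were seen. All within-group pairs of libraries differed by more than sampling noise. Deviations from group means of same-letter libraries correlated across genes at 0.54, 0.52 and 0.35 (A, B, C) between untreated and oxamate libraries, so same-letter libraries deviated together there. The planned fit has no block and gives every value in the text unless the block is named; with the letter as a replicate block the same 5 members were called, and Kdm7a had a log2 change of 0.74 (limma adjusted p = 0.00087). Between oxamate and octyl-L2HG libraries the correlations were 0.46, 0.52 and 0.01 (A, B, C). Between untreated and octyl-L2HG libraries they were 0.27, 0.46 and 0.04. Letters A and B thus deviated together there too, while letter C did not, and the planned fit took no comparison as paired.

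Markers of other cells were checked in untreated, oxamate and octyl-L2HG libraries in turn. Summed Sertoli cell markers lay at 0.180 to 0.503, 0.269 to 0.301 and 0.220 to 0.294 CPM, and none of the 6 could be tested. Leydig cell markers summed to 3.45 to 3.96, 1.91 to 2.52 and 2.80 to 3.04 CPM, peritubular myoid cell markers to 2.58 to 3.41, 2.16 to 2.66 and 0.883 to 1.40 CPM, and macrophage markers to 2.20 to 2.74, 2.34 to 4.77 and 2.61 to 9.02 CPM. Spermatocyte markers summed to 3195 to 3479 CPM in untreated libraries. Spermatogonium markers summed to 892 to 1111, 832 to 1079 and 803 to 1267 CPM, nearly all of it Dmrtb1; Kit stood at 1.61 CPM and Stra8 at 0.0400 CPM in untreated cells.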

Additional observations from a re-analysis of the deposited data

How the results depend on the processing

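Alternatives were 2 other scalings, no or a stricter filter on low counts, limma-trend, a replicate block, a fit of the 6 libraries compared, removal of trends with transcript length and GC content (added after seeing the data) and leaving out each library. Of the values for single members, 306 kept their direction and side of the threshold, 17 fell below it, 7 passed it and 11 changed sign. With oxamate against untreated, 5 members were called, 4 without a filter or with length and GC trends removed, 5 with the replicate block, and 1 to 4 when a library was left out (1 without untreated C, 2 without untreated B or oxamate C, 3 without untreated A or oxamate B). With octyl-L2HG added to oxamate, 1 member was called, but 3 with the replicate block (Kdm5a and Kdm5c gained, limma adjusted p = 0.027 and 0.043), 2 with length and GC trends removed, and 1 to 2 when a library was left out. Octyl-L2HG plus oxamate against untreated gave 4, and 5 with the replicate block (Kdm6a gained, log2 change 0.82, limma adjusted p = 0.035) or with length and GC trends removed (Kdm5b gained, -0.25, limma adjusted p = 0.026). With the replicate block more genes were also called over all tested genes in oxamate against untreated, as given above. Shares over all genes under the other settings are not given here, so these counts of members cannot be set against a background. The changes of sign were of small values. Phf2 with oxamate went to -0.0027 with median of ratios scaling and -0.025 with upper quartile scaling, and ran from -0.041 to 0.040 when a library was left out. With octyl-L2HG added, Kdm7a went to 0.0096 with upper quartile scaling and Phf2 to -0.00030 with length and GC trends removed; without a library Kdm7a ran from -0.080 to 0.043 and Kdm6a from -0.37 to 0.18. Differences of log2 ratios without a library ran from -0.0051 to 0.25 for Kdm5c to Kdm5a and from -0.18 to 0.0079 for Phf8 to Phf2 with oxamate, and for Kdm6a to Kdm6b from -0.34 to 0.26 with oxamate, from -0.57 to 0.19 with octyl-L2HG added and from -0.54 to 0.11 between the latter and untreated.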
